A study of Mus musculus with 123 samples.

Results

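The respiratory chain and the ATP synthase were followed through 86 nuclear genes, out of 13842 genes measured by RNA-seq in mouse cortex. Members were taken by symbol alone: those starting with Nduf, Uqcr, Cox4 to Cox8 or Atp5, and Sdha to Sdhd, without pseudogene symbols. The rule reads symbols and no measured value, although the gene family itself was picked with earlier results of these data known. At the end of sleep deprivation 10 of the 86 passed the test, against 31.6% of all genes, with changes of at most 0.27 on the log2 scale, and none passed from 12 h after its end onward with all animals in the fit.

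Complexes I and II of the inner mitochondrial membrane take electrons from NADH and succinate and pass them through complex III to complex IV, which reduces oxygen. Complexes I, III and IV pump protons, and complex V, the ATP synthase, uses the gradient to make ATP. Neurons draw most of their ATP from this pathway. A small set of subunits is encoded in mitochondrial DNA (mtDNA), and all others, including the whole of complex II, are nuclear.

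The study asked how sleep and wake, against time of day, shape daily rhythms of transcripts and open chromatin in the cortex. All animals were male C57BL/6J mice, a common inbred strain, aged 11 to 12 weeks and kept in 12 h of light and 12 h of dark. Sleep deprivation, by gentle handling, began at light onset and lasted 6 h. Time T is counted in hours from light onset of the baseline day and zeitgeber time (ZT) from light onset of each day. T27 and T30 thus lie 3 h and 6 h into deprivation, and T36 onward follow its end, although the labels of T36 samples place them within it. RNA-seq was available for 62 animals: undisturbed controls numbered 8 at ZT0, 3 at ZT3, 5 at ZT6, 5 at ZT12 and 5 at ZT18, and there were 3 deprived animals at each of T27, T30, T36, T42, T48, T54, T60, T66, T72, T78, T192 and T198. ATAC-seq, which reads open chromatin through the insertion of a transposase, was available for 59 of the animals. Each deprived group was compared with controls of its own time of day, and adjusted p-values (Benjamini-Hochberg) cover all genes of the table. Controls of T30, T54, T78 and T198 are the same 5 animals, and likewise for the other times of day, so these comparisons are not independent of each other.

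The members comprise 36 subunits of complex I, 7 assembly factors of complex I, 4 subunits of complex II, 8 of complex III, 12 of complex IV and 15 of complex V, and 4 genes that were not assigned to a complex. The complex I subunits include Ndufs1, Ndufs3, Ndufs7, Ndufs8, Ndufv1 and Ndufv2, which belong to the catalytic core, and the 29 accessory subunits Ndufa1, Ndufa2, Ndufa3, Ndufa5, Ndufa6, Ndufa7, Ndufa8, Ndufa9, Ndufa10, Ndufa11, Ndufa12, Ndufa13, Ndufab1, Ndufb2, Ndufb3, Ndufb4, Ndufb5, Ndufb6, Ndufb7, Ndufb8, Ndufb9, Ndufb10, Ndufb11, Ndufc1, Ndufc2, Ndufs4, Ndufs5, Ndufs6 and Ndufv3. Its assembly factors are Ndufaf1 to Ndufaf7. Complex II comprises Sdha, Sdhb, Sdhc and Sdhd. Complex III is represented by Uqcr10, Uqcr11, Uqcrb, Uqcrc1, Uqcrc2, Uqcrfs1, Uqcrh and Uqcrq. Complex IV is represented by Cox4i1, Cox5a, Cox5b, Cox6a1, Cox6a2, Cox6b1, Cox6c, Cox7a2, Cox7b, Cox7c, Cox8a and Ndufa4, whose product is a subunit of complex IV despite its name. Complex V is represented by the F1 subunits Atp5a1, Atp5b, Atp5c1, Atp5d and Atp5e and by Atp5f1, Atp5g1, Atp5g2, Atp5g3, Atp5h, Atp5j, Atp5j2, Atp5k, Atp5l and Atp5o. The unassigned genes are Cox7a2l, Atp5s, Atp5sl and Ndufa4l2, a paralog of Ndufa4. Atp5s and Atp5sl are named Dmac2l and Dmac2 in RefSeq, and the latter takes part in assembly of the distal membrane arm of complex I.

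Promoter windows of 4 members are shown because the results turn on them: Atp5d, Ndufa8 and Ndufaf1 gave the calls at the end of deprivation that no alternative setting removed, and Ndufs3 had the smallest p for time of day. Each runs from 250 bases before the annotated transcription start to 50 bases after it, from RefSeq on GRCm38.p6, written 5′ to 3′ on the gene's strand, with matches to 3 motif cores in capitals.
Atp5d, chr10:80142025-80142324, plus strand: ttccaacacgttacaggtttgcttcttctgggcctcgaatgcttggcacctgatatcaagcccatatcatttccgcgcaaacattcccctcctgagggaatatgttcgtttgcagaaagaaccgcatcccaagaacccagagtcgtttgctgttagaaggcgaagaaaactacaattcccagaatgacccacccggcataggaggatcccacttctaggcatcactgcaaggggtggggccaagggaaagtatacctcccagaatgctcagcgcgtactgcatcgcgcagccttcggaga
Ndufa8, chr2:36049289-36049588, minus strand: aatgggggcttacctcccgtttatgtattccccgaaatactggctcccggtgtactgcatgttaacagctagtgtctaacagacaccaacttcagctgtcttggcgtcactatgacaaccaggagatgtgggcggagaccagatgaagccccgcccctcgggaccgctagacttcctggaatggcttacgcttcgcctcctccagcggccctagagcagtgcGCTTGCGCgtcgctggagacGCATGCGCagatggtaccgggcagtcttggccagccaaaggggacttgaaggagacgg
Ndufaf1, chr2:119662785-119663084, minus strand: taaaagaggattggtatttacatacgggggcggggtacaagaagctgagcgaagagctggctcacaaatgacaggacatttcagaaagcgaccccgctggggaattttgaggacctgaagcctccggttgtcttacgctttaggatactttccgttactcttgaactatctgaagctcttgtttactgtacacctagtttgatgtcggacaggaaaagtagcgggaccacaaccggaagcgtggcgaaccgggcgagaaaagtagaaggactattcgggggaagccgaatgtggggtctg
Ndufs3, chr2:90904672-90904971, minus strand: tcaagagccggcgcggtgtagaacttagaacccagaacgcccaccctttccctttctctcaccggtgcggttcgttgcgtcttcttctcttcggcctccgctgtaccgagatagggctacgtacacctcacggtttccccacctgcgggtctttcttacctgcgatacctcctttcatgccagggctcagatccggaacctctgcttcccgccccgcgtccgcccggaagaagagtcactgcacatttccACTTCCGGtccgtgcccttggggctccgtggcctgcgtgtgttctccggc
The capitals in the Ndufa8 window are 2 matches to the NRF1 core and those in the Ndufs3 window are 1 match to the ETS core, while the Atp5d and Ndufaf1 windows hold no match. Motif counts over all windows are given with the chromatin data.

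In the control animals the deposited log2 levels differed widely between members. The sources used here do not say whether these levels were scaled by transcript length, so a difference between genes is a difference in the deposited value and not in the number of transcripts. In complex I they ran from 4.70 for Ndufa11 to 8.06 for Ndufb9, both accessory subunits, as means over 26 controls. The assembly factors lay lower, from 3.37 for Ndufaf6 to 5.39 for Ndufaf3. Complex II ran from 6.47 for Sdhd, a membrane anchor, to 7.96 for Sdha, the flavoprotein that oxidises succinate. Complex III ran from 6.72 for Uqcrfs1, the Rieske iron-sulfur protein, to 8.59 for Uqcrh, the hinge protein. Complex IV ran from 3.88 for Cox6a2 to 9.58 for Cox4i1, and complex V from 4.90 for Atp5g2 to 10.08 for Atp5b, the catalytic beta subunit. The unassigned genes ran from 2.07 for Ndufa4l2 to 7.49 for Cox7a2l.

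Of the isoform groups, the muscle form Cox6a2 had a mean deposited level of 3.88 ± 0.13 (SD, n = 26) against 9.04 ± 0.07 (SD, n = 26) for its ubiquitous partner Cox6a1. The genes Atp5g1, Atp5g2 and Atp5g3 encode the same mature c subunit of the ATP synthase rotor, and their levels were 7.82 ± 0.11, 4.90 ± 0.19 and 8.57 ± 0.05 (SD, n = 26). Cox4i1 lay at 9.58 ± 0.05, Cox6b1 at 8.79 ± 0.05, Cox7a2 at 7.67 ± 0.06 and Cox8a at 9.44 ± 0.08 (SD, n = 26). The partners Cox4i2, Cox6b2, Cox7a1, Cox8b and Cox8c had no value under these symbols in the RNA data used here. In these isoform groups only Cox7a2l passed the test in a deprivation comparison, at T30.

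Across the day in undisturbed mice, few members changed. The F-test of limma over the 5 control times called 10 of 86 members (11.6%), against 40.7% of all genes tested. The median range between the highest and lowest time of day was 0.10 on the log2 scale for members and 0.17 for all genes. Complex I contributed 5 of its 36 subunits (Ndufs3, Ndufs1, Ndufa8, Ndufa7 and Ndufs5), its assembly factors 1 of 7 (Ndufaf5), complex V 1 of 15 (Atp5d), and the unassigned genes 3 of 4 (Ndufa4l2, Atp5s and Atp5sl). None of the 4, 8 and 12 members in complexes II, III and IV passed. The share called was 21 of 77 among mitochondrial ribosomal protein genes, 9 of 89 among cytosolic ribosomal protein genes, 7 of 38 among proteasome subunits and 6 of 21 among genes of the citric acid cycle and pyruvate dehydrogenase. With batch 1 controls alone, which leaves 3 or 4 animals a time, 2 members and 23.4% of all genes passed.

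Ndufs3, a core subunit of the peripheral arm of complex I, had log2 levels between 7.38 and 7.46 with a median of 7.42 at ZT0. It lay between 7.49 and 7.57 in the 3 animals at ZT3, at 7.46, 7.47, 7.48, 7.52 and 7.55 at ZT6, and at 7.47, 7.52, 7.52, 7.53 and 7.58 at ZT12. At ZT18 it lay at 7.40, 7.45, 7.45, 7.47 and 7.48. The ZT0 animals were all below the ZT3, ZT6 and ZT12 animals, while the ZT0 and ZT18 animals overlapped. The fitted range was 0.10, a fold of 1.07, with an adjusted p of 0.00436 from limma.

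Ndufs1, the large iron-sulfur subunit of the complex I core, was highest at ZT6 and lowest at ZT18. Its levels were 7.02, 7.02, 7.06, 7.06 and 7.07 at ZT6 and 6.86, 6.90, 6.91, 6.94 and 6.95 at ZT18, so the groups did not overlap. The fitted range was 0.13 and the adjusted p of limma 0.00723. Ndufa8, an accessory subunit at the intermembrane space face, was highest at ZT18 and lowest at ZT12, and had levels of 6.85, 6.88, 6.88, 6.93 and 7.00 at ZT6 and 7.00, 7.01, 7.01, 7.07 and 7.07 at ZT18. Its fitted range, between ZT18 and ZT12, was 0.13, with an adjusted p of 0.0116 from limma. The assembly factor Ndufaf5 also lay lower at ZT6, with 5.05, 5.12, 5.14, 5.15 and 5.18, than at ZT18, with 5.19, 5.25, 5.29, 5.33 and 5.39, without overlap.

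**Figure D1:**
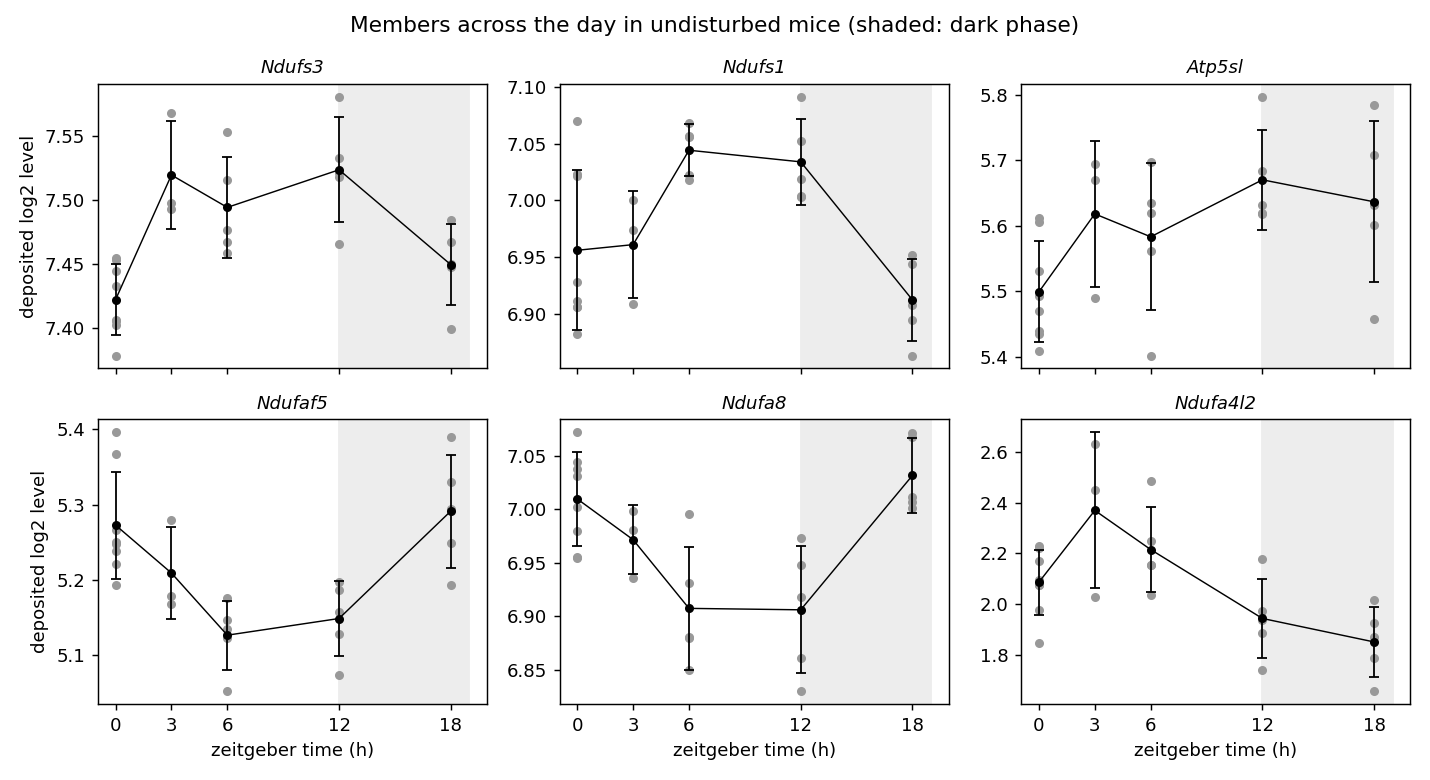
Deposited log2 level (y axis) against zeitgeber time in hours (x axis) for Ndufs3, Ndufs1, Atp5sl, Ndufaf5, Ndufa8 and Ndufa4l2 in undisturbed controls. Grey points are animals (8, 3, 5, 5 and 5 at ZT0, ZT3, ZT6, ZT12 and ZT18), black points with bars are mean ± SD, and grey shading marks the dark phase. Ndufs3 lies low at ZT0 and ZT18, Ndufs1 lies high at ZT6 and ZT12, Ndufaf5 and Ndufa8 lie low at ZT6 and ZT12, and Ndufa4l2 has the widest fitted range, 0.53.

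Ndufa4l2, a paralog of Ndufa4 that hypoxia induces in several cell types, had the widest fitted range among members, 0.53 or a fold of 1.44, with an adjusted p of 0.00777 from limma. Its levels were 2.03, 2.45 and 2.63 at ZT3 and 1.66, 1.79, 1.87, 1.92 and 2.02 at ZT18. The highest ZT18 animal and the lowest ZT3 animal were nearly level, and the other ZT3 animals stood apart from all ZT18 animals. Atp5d, the delta subunit of the central stalk of the F1 sector, had a fitted range of 0.16 with its peak at ZT3 and an adjusted p of 0.00795. Atp5s, Atp5sl, Ndufa7 and Ndufs5 had fitted ranges of 0.14, 0.17, 0.18 and 0.15, with adjusted p of 0.0252, 0.0268, 0.0315 and 0.0322. The next members in the order of p, Uqcrh of complex III and the assembly factor Ndufaf1, had adjusted p of 0.0575 and 0.0633 and did not pass.

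Between the active phase at ZT18 and the rest phase at ZT6, 9 members differed, against 29.7% of all genes. The 4 that were higher at ZT18 were Ndufaf5 by 0.16, Ndufaf1 by 0.16, Ndufa8 by 0.12 and Atp5g1 by 0.18 on the log2 scale. The 5 that were lower at ZT18 were Ndufs1 with a change of -0.13, Atp5o with -0.10, Ndufa4l2 with -0.36, Atp5s with -0.14 and Uqcrc2, a core protein of complex III, with -0.11. The median over the 86 members was -0.01. From batch 1 alone 3 members passed this comparison. Between ZT6 and ZT0, 3 members were higher at ZT6 (Atp5s, Ndufs1 and Ndufs3) and 4 lower (Atp5d, Cox8a, Ndufa8 and Ndufaf5), against 22.7% of all genes called. The ZT0 animals labelled T0 and T24 gave 0 calls among members and 0% of all genes when compared with each other by limma, with 9 members at an unadjusted p under 0.05.

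After 3 h of deprivation, at T27, no member passed the limma test, while 15.6% of all genes did. The log2 changes of the members ran from -0.25 to 0.20, and 68 of 86 were above zero with a median of 0.04, against 6699 of 13842 and a median of -0.005 over all genes. At an unadjusted p under 0.05 there were 6 members. The medians were 0.03 for complex I, 0.10 for its assembly factors, 0.002 for complex II, 0.06 for complex III, 0.05 for complex IV and 0.03 for complex V. T27 replicate 3 stood above the other T27 animals, with a mean deviation of the member genes from the 26 controls of 0.15 against -0.03 and -0.005. When levels were rescaled to the sum over nuclear genes, 49 of 86 members remained above zero with a median of 0.01. Over all genes 5729 of 13842 then lay above zero, with a median of -0.03. The median of complex II turned to -0.02.

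At the end of deprivation, at T30, 4 members rose and 6 fell, 11.6% of the members against 31.6% of all genes. The risers were Atp5d, the assembly factors Ndufaf1 and Ndufaf5, and Ndufa8. The genes that fell were the core subunits Ndufs1 and Ndufs3 and the accessory subunits Ndufb4 and Ndufb9 of complex I, together with Cox7a2l and Atp5s. In complex I 1 of 36 subunits rose and 4 fell, 2 of 7 assembly factors rose, 1 of 15 members of complex V rose, and none of complexes II, III and IV passed. The median over all members was 0.005, against -0.003 for all genes. When each library was centred on its median it turned to -0.01, against -0.02 for all genes. The complex medians were 0.02 for I, 0.12 for the assembly factors, -0.07 for II, 0.03 for III, 0.005 for IV and -0.03 for V, and centring turned that of IV to -0.01. The members' standard error had a median of 0.05, against 0.07 for all genes. Whether precision bears on the share of members called was not tested. With the batch 1 animals alone, 6 members passed, against 24.6% of all genes.

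**Figure D2:**
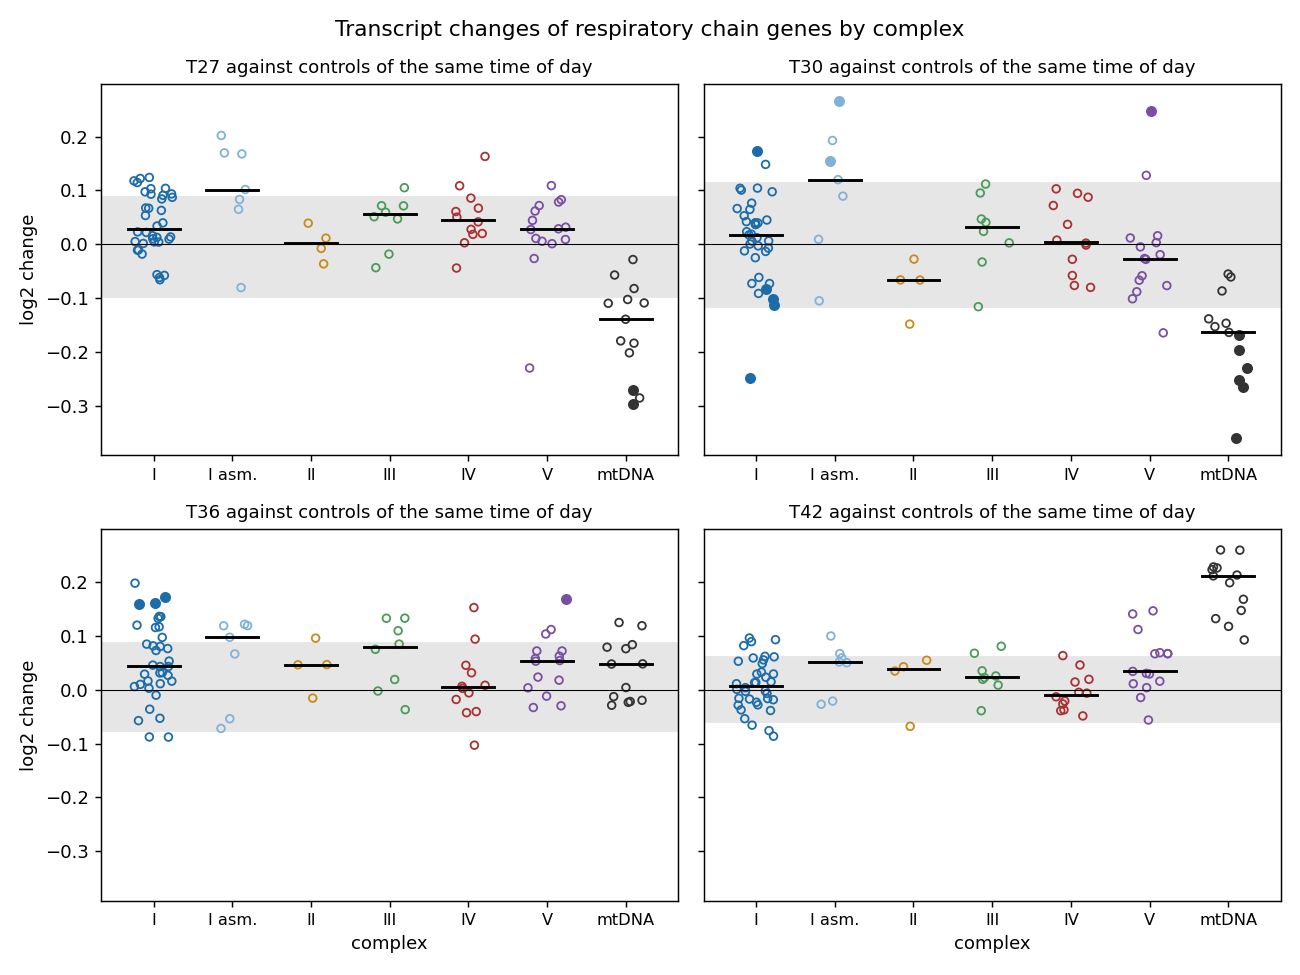
Log2 change (y axis) of 82 members by complex and of the 13 mtDNA-encoded transcripts at T27, T30, T36 and T42 against controls of the same time of day. Each point is a gene, filled where the adjusted p was below 0.05, black lines are medians, the grey band spans the middle 50% of all genes, and the 4 unassigned genes are not drawn. Points of complexes II, III and IV are open in all 4 panels, and the mtDNA-encoded points lie below zero at T27 and T30 and above zero at T42.

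Atp5d had log2 levels of 7.98, 7.99 and 8.10 at T30 and of 7.71, 7.73, 7.74, 7.83 and 7.90 in ZT6 controls. All T30 animals lay above all controls. Its change was 0.25 ± 0.06 (SE), a fold of 1.19, with an adjusted p of 0.000724, and it stayed past the threshold in 16 of 16 alternative settings. ZT0 controls ranged from 7.85 to 8.01, so the lower T30 animals lay within that range and the highest above it.

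Ndufaf1, which helps to build an early intermediate of complex I, had levels of 4.90, 4.94 and 5.07 at T30 and of 4.54, 4.70, 4.72, 4.76 and 4.79 in ZT6 controls. The groups did not overlap. The change of Ndufaf1 was 0.27 ± 0.06 (SE), a fold of 1.20, with an adjusted p of 0.00109. Its levels were 4.83, 4.94 and 5.02 at T27, where the change of 0.17 had not passed, and 4.76, 4.84 and 4.95 at T36. Ndufa8 had levels of 7.03, 7.09 and 7.11 at T30, all above the ZT6 controls between 6.85 and 7.00, with a change of 0.17 ± 0.05 (SE) and an adjusted p of 0.0035. Calls of Ndufaf1 and Ndufa8 at T30 held in 16 of 16 alternative settings each.

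Ndufaf5, which in human cells modifies the core subunit Ndufs7 during assembly, had levels of 5.23, 5.26 and 5.34 at T30, all above the ZT6 controls between 5.05 and 5.18. Its change was 0.15 ± 0.05 (SE) with an adjusted p of 0.0254, and it lost the call in 6 of 16 settings. Among the genes that fell, Atp5s had levels of 4.10, 4.11 and 4.11 at T30 against 4.19, 4.19, 4.33, 4.36 and 4.40 in controls, without overlap. The change of Atp5s was -0.19 ± 0.06 (SE) with an adjusted p of 0.0095. Cox7a2l had levels of 7.34, 7.37 and 7.41 against 7.41, 7.52, 7.53, 7.53 and 7.58, where the highest T30 animal was level with the lowest control, with a change of -0.14 ± 0.04 (SE) and an adjusted p of 0.00623. Each of these calls was lost in 1 of 16 settings.

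Ndufs1 lay at 6.90, 6.94 and 6.96 at T30, below all ZT6 controls, with a change of -0.11 ± 0.04 (SE) and an adjusted p of 0.0355. Ndufs3 lay at 7.41 in all 3 T30 animals, below the lowest control at 7.46, with a change of -0.08 ± 0.03 (SE) and an adjusted p of 0.048. Ndufb9 had levels of 7.90, 7.99 and 8.01 against controls between 8.01 and 8.13, with 1 T30 animal inside the control range. Ndufb4 had levels of 5.26, 5.28 and 5.47 against 5.47 to 5.70. Their changes were -0.10 ± 0.04 and -0.25 ± 0.10 (SE), with adjusted p of 0.0437 and 0.0493. These 4 calls were the least stable at T30: the call was lost in 7 of 16 settings for Ndufs1, 9 for Ndufs3, 9 for Ndufb9 and 8 for Ndufb4. Mouse RefSeq lists further genes of the Ndufb4 family (Ndufb4b and Ndufb4c), with which Ndufb4 could share reads.

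**Figure D3:**
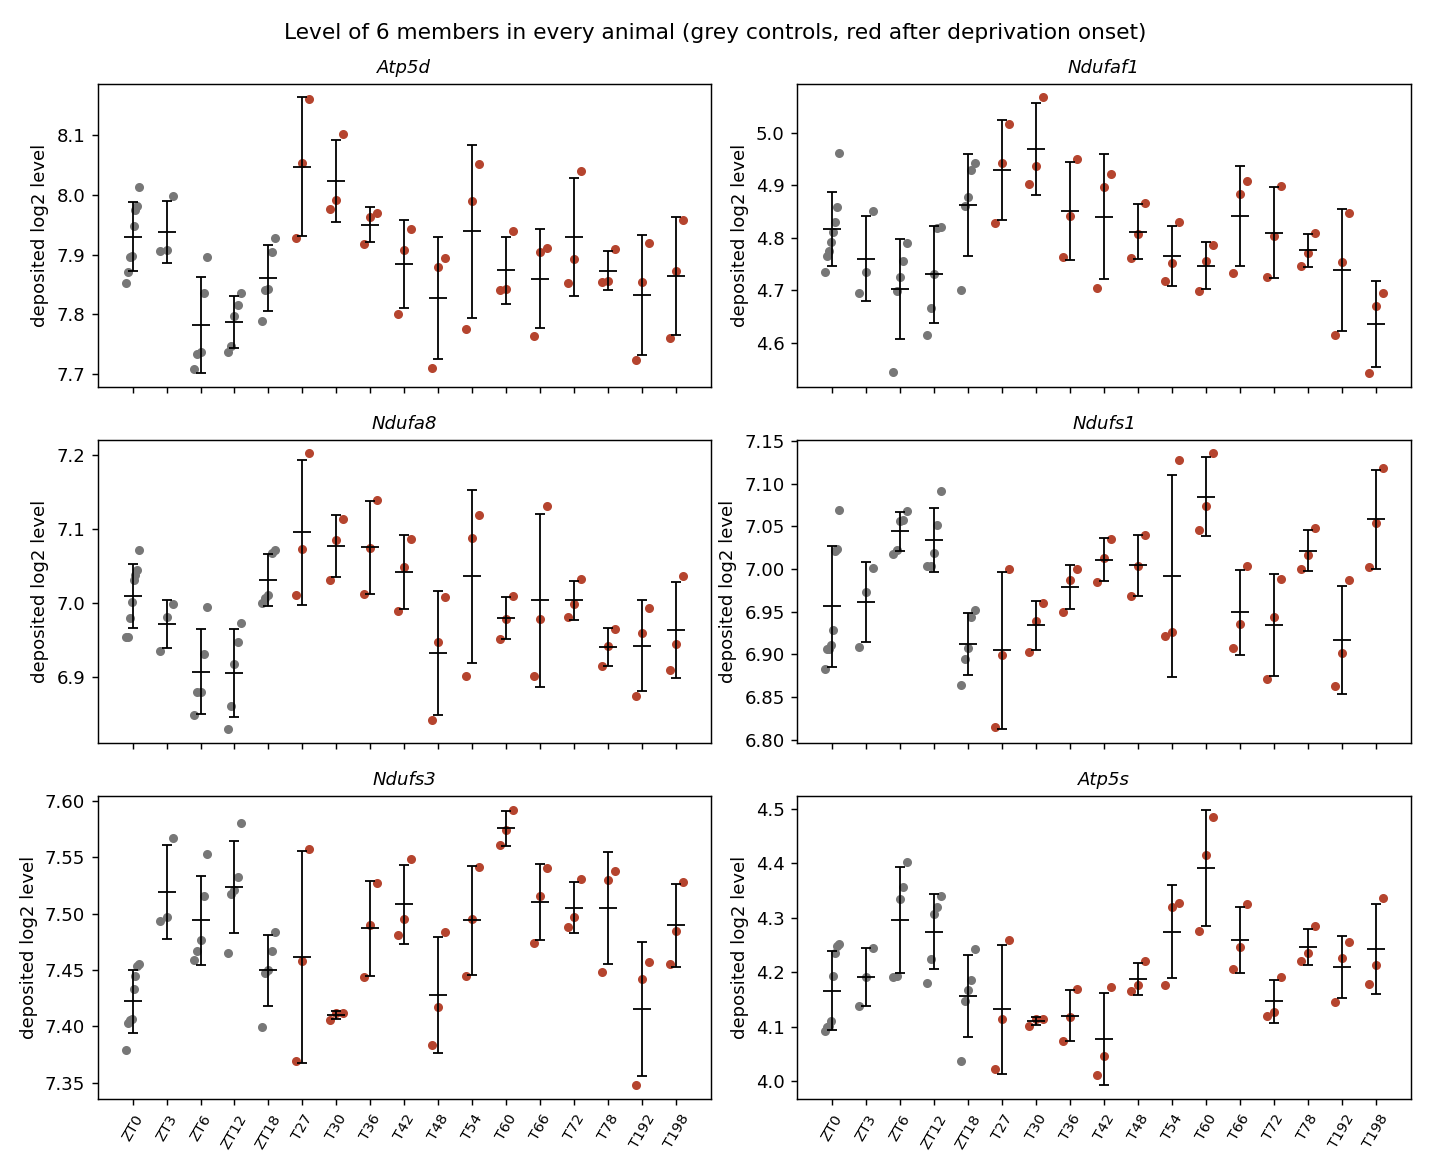
Deposited log2 level (y axis) of Atp5d, Ndufaf1, Ndufa8, Ndufs1, Ndufs3 and Atp5s in each of 62 animals by group (x axis), grey for undisturbed controls and red for deprived mice, with mean ± SD in black. At T30, levels of Atp5d, Ndufaf1 and Ndufa8 lie above those of the 5 ZT6 controls, and levels of Ndufs1, Ndufs3 and Atp5s lie below them.

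Some of the members called at T30 also differed between control times, while Cox7a2l, Ndufb4 and Ndufb9 were not called for time of day. Ndufa8, Ndufaf1 and Ndufaf5 were higher at ZT18 than at ZT6, and Ndufs1 and Atp5s lower, as given above, but that comparison shares the ZT6 controls with T30. The comparison of ZT18 with ZT12 shares no animal with T30 and its controls and called 6 members, against 26.8% of all genes. Of these, 4 were also called at T30 and each had the same sign there: Ndufa8 at 0.13 and Ndufaf5 at 0.14 were higher at ZT18, and Ndufs1 at -0.12 and Ndufs3 at -0.07 were lower. That is 40% of the members' T30 list and 66.7% of their ZT18 against ZT12 list. Over all genes, 2296 were called in both comparisons, 52.5% of the T30 list and 61.9% of the other. Of those 2296, 97.8% had the same sign. Ndufb10 and Uqcr10 were called between ZT18 and ZT12 and not at T30.

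Complex II is entirely nuclear and was described through all 4 subunits, none of which passed at any time. At T30 the changes were -0.07 for Sdha, -0.03 for Sdhb, the iron-sulfur subunit, -0.15 for Sdhc and -0.07 for Sdhd, the 2 membrane anchors, with adjusted p of 0.126, 0.592, 0.0854 and 0.287 from limma. Sdhc had levels of 6.53, 6.64 and 6.69 at T30 against 6.69, 6.74, 6.77, 6.78 and 6.88 in ZT6 controls. The highest T30 animal overlapped the lowest control.

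At T36, 6 h into recovery, 4 members were higher than ZT12 controls and none lower, 4.65% of members against 11.9% of all genes. They were the complex I accessory subunits Ndufb10, Ndufa8 and Ndufc2 and again Atp5d. Ndufb10, in the membrane arm, had levels of 7.68, 7.73 and 7.80 against 7.51, 7.58, 7.58, 7.59 and 7.62, with a change of 0.16 ± 0.04 (SE) and an adjusted p of 0.0086. Ndufa8 had levels of 7.01, 7.08 and 7.14 at T36 against controls between 6.83 and 6.97, with a change of 0.17 ± 0.05 (SE) and an adjusted p of 0.00971. For both genes the T36 animals lay above all controls.

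Atp5d at T36 lay at 7.92, 7.96 and 7.97 against 7.74 to 7.84, with a change of 0.17 ± 0.06 (SE) and an adjusted p of 0.0427. Ndufc2, also in the membrane arm, lay at 7.31, 7.36 and 7.44 against 7.13 to 7.28, with a change of 0.16 ± 0.05 (SE) and an adjusted p of 0.038. Without T36 replicate 1 none of the 4 passed, and with batch 1 alone 2 did, Ndufb10 and Ndufa8. Of 86 members 64 were above zero (median 0.05), against 7122 of 13842 genes (median 0.004). Of the members 18 had an unadjusted p under 0.05. Rescaled to the nuclear sum, 48 members were above zero (median 0.01), against 5697 of 13842 genes (median -0.03).

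Whether the effect of deprivation on a member differed between neighbouring times was tested directly with limma. No member passed for T30 against T27, T36 against T30 or T42 against T36, with 3, 2 and 8 members at an unadjusted p under 0.05. Over all genes 0.00722%, 11.4% and 3.3% passed these tests. A member called at one of these times and not at its neighbour is therefore not shown to differ between them.

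From T42 onward no member passed the test with all animals. At T42 and T48 the limma test called 1.05% and 1.27% of all genes, and 3 and 11 members had an unadjusted p under 0.05. At T54, T60, T72 and T198 it called 0.00722% of all genes, at T66 0.0795%, and at T78 and T192 0%. At an unadjusted p under 0.05 there were 18 members at T54, 32 at T60, 8 at T66, 3 at T72, 2 at T78, 6 at T192 and 6 at T198. The share of all genes under that unadjusted cut-off is not given here. These counts are therefore not read as a response of the members. At T48, 16 of 86 members were above zero with a median of -0.03, and all 12 members of complex IV were below it. When rescaled to the nuclear sum, 29 members were above zero at T48, 1 of them in complex IV. Of all 13842 genes, 7016 were above zero at T48 as deposited and 8237 when rescaled.

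At T60, 82 of 86 members lay above ZT12 controls, with a median of 0.10 against 0.01 for all genes, and of 0.06 against -0.02 when rescaled to the nuclear sum. For 24 members all 3 T60 animals lay above all 5 controls, 27.9% of members, while the groups did not overlap for 11.3% of all genes. The same count lay below that of all genes earlier: 8.14% against 31.7% at T27, 14% against 32.4% at T30 and 15.1% against 19.1% at T36. The T60 medians were 0.09 for complex I, 0.03 for its assembly factors, 0.13 for II, 0.12 for III, 0.10 for IV and 0.11 for V. Rescaled to the nuclear sum, the median of the assembly factors was -0.01 and those of the 5 complexes stayed above zero. All T60 animals belong to batch 2, which holds 2 of the 5 ZT12 controls. No member passed at T60 in any setting tried. At T54, 71 of 86 members were above ZT6 controls with a median of 0.05, and without T54 replicate 4 limma called 17 members, all higher, and 4.65% of all genes. T54 libraries also differed among themselves in the share of mtDNA-encoded transcripts, given below for other groups, at 22.0%, 26.3% and 27.4%.

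Members varied together from animal to animal. After group and batch means were removed, the median correlation over 3655 pairs of members was 0.31 across 62 animals, and 85.1% of pairs were positive. The median was 0.0005 over pairs of every 10th gene of the table. Within complexes the medians were 0.32 for I, 0.05 for its assembly factors, 0.37 for II, 0.26 for III, 0.38 for IV and 0.38 for V. Proteasome subunits, at 0.31, and cytosolic ribosomal protein genes, at 0.28, had similar medians among themselves, and members correlated with proteasome subunits at a median of 0.27. All pairs share the same libraries. With 3 animals in a deprived group, counts of positive members above are therefore not counts of independent genes.

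The 13 protein-coding transcripts of mtDNA supply the remaining subunits of complexes I, III, IV and V and were described beside the members. They took a large and variable share of the summed linear level: 24.1%, 24.2%, 25.2%, 25.5% and 25.9% in ZT6 controls and 22.0%, 22.6% and 23.8% at T30. The T30 libraries lay below the ZT6 libraries without overlap. ZT3 controls had between 24.5% and 26.04%, with a middle value of 25.7%, and T27 had 22.4%, 22.7% and 24.5%. At ZT18 the controls lay at 21.8%, 23.1%, 23.4%, 23.4% and 24.5%, and at ZT12 at 24.4%, 24.9%, 25.3%, 25.5% and 25.8%. The 86 members together held 1.85% ± 0.03 (SD, n = 5) at ZT6 and 1.90% ± 0.03 (SD, n = 3) at T30. That sum includes the mtDNA-encoded transcripts. Of the sum over nuclear genes the members held 2.47% ± 0.02 (SD, n = 5) at ZT6 and 2.46% ± 0.04 (SD, n = 3) at T30.

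At T30, 6 of 13 mtDNA-encoded transcripts fell and none rose, against 31.6% of all genes changed, and the 13 values had a median of -0.16 with none above zero. The transcripts that fell were mt-Nd6, mt-Nd1, mt-Nd5, mt-Atp6, mt-Nd3 and mt-Co1, with changes of -0.36, -0.27, -0.25, -0.20, -0.23 and -0.17. At T27, mt-Nd5 and mt-Nd6 fell, by 0.27 and 0.30, which is 15.4% of the 13 against 15.6% of all genes, and the median was -0.14, again with none above zero. None of the 13 passed at T36, where the median was 0.05. The changes at T36 were higher than those at T30 by 0.31 for mt-Nd1, 0.30 for mt-Nd5 and 0.33 for mt-Nd6, with adjusted p of 0.0259, 0.0372 and 0.0329 for the difference from limma. Over all genes 11.4% passed that test, and no other mtDNA-encoded transcript did. At T42 all 13 were above ZT18 controls with a median of 0.21 and 10 had an unadjusted p under 0.05, but none passed after adjustment. The signs of these medians at T27, T30, T36 and T42 were the same under the 3 scalings tried. These genes were named after their values were seen.

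**Figure D4:**
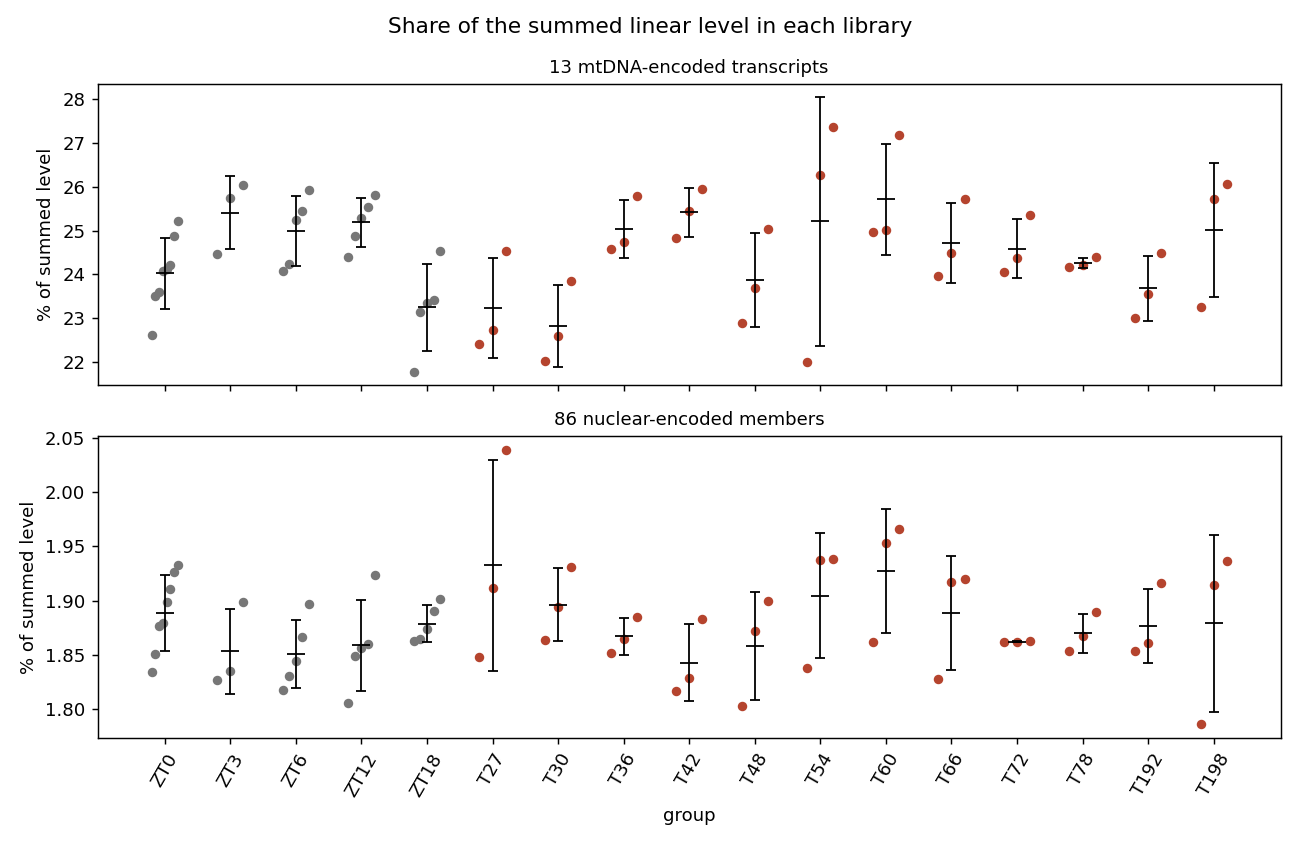
Share of the summed linear RNA level, in percent (y axes), held by the 13 mtDNA-encoded transcripts and by the 86 members in each of 62 libraries by group (x axis). Grey points are undisturbed controls, red points deprived mice, and black bars mean ± SD. The mtDNA share is 22.0% to 23.8% at T30 against 24.1% to 25.9% at ZT6, while the members' share stays between 1.79% and 2.04% in all libraries.

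In controls, 8 of the 13 mtDNA-encoded transcripts were lower at ZT18 than at ZT6, with a median of -0.14, which is 61.5% of the 13 against 29.7% of all genes called in either direction. The F-test over times of day called mt-Nd6, mt-Nd1, mt-Nd5 and mt-Atp6, 30.8% of the 13 against 40.7% of all genes. The ZT18 comparison depends on single animals: from 2 to 9 transcripts passed when 1 control was left out. The T30 count ran from 3 to 7 in the same way, the count at T27 from 0 to 2, and the time-of-day count from 1 to 4. The sources used here do not give the strand setting of the counting, so reads of mt-Nd6, which lies on the opposite strand, and of its antisense transcript cannot be told apart. The genes mt-Atp8 and mt-Nd4l overlap mt-Atp6 and mt-Nd4 and can share reads with them. The correlation of residuals had a median of 0.76 among mtDNA-encoded transcripts and of 0.12 between them and the members.

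Regulators of these subunits were read beside them. Of 15 measured regulators of mitochondrial gene expression, 5 rose and 2 fell at T30, against 31.6% of all genes changed. Esrra, an orphan nuclear receptor that drives respiratory genes, had levels between 5.33 and 5.52 at T30 and between 5.06 and 5.33 in ZT6 controls, touching at that value, with a change of 0.28 and an adjusted p of 0.000987. Nrf1, the factor that binds the NRF1 motif, lay between 3.98 and 4.07 against 3.63 to 3.88, with a change of 0.25 and an adjusted p of 0.000818. The PGC-1 family coactivators Ppargc1b and Pprc1 rose by 0.40 and 0.30, and Gabpb1, a subunit of an ETS-type factor, by 0.24. Esrrg fell by 0.19 and Hif1a, of the hypoxia response, by 0.29. At T27 Esrra had risen by 0.26 as the only regulator called, and at T36 Nrf1 was higher by 0.18.

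Assembly factors outside the members' rule insert cofactors and join subunits. Of 37, 4 rose and 8 fell at T30 (32.4% against 31.6% of all genes), 1 rose and 2 fell at T27 (8.11% against 15.6%), 5 rose at T36 (13.5% against 11.9%) and 1 fell at T48 (2.7% against 1.27%). At T30 Sco2 and Sco1, both copper chaperones of complex IV, changed in opposite directions, by 0.54 and -0.38. Sdhaf1, which supplies iron-sulfur clusters to complex II, fell by 0.43, Foxred1, of complex I, by 0.31, and Atpaf1, of the F1 sector, by 0.24, while the complex I factor Timmdc1 rose by 0.18. At T36 Cox11 was higher by 0.29, Coa7 by 0.35, Uqcc2 by 0.20, Cox14 by 0.17 and Timmdc1 by 0.16. Uqcc2, an assembly factor of complex III, was lower at T48 with a change of -0.19. The nuclear electron carrier subunit Cyc1 of complex III rose by 0.14 at T36, as 1 of 7 other nuclear subunits and carriers. Of 77 mitochondrial ribosomal protein genes, 15 rose and 6 fell at T30, 27.3% against 31.6% of all genes.

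Cell type markers bear on these bulk samples, in which fewer cells of a type and less RNA per cell cannot be told apart. Excitatory neuron markers, which include Slc17a7 and Camk2a, were present in every library, and their summed linear level was 4106 to 4583 at T30 and 3976 to 4446 at ZT6. Of 7 oligodendrocyte markers 3 fell at T30 (Opalin, Mog and Cnp) and 1 at T36 (Opalin), with summed levels of 1754 to 2366 at T30 against 1989 to 2580 at ZT6, and of 1848 to 2000 at T36 against 1977 to 2503 at ZT12. Of 6 microglia markers 3 fell (Cx3cr1, P2ry12 and Trem2) and 1 rose (Tmem119) at T30, with sums of 135 to 140 against 148 to 152. Of 5 endothelial markers 1 fell at T30 (Slco1a4), with sums of 128 to 130 against 138 to 152 at ZT6, and of 3 choroid plexus markers 1 fell (Enpp2), with sums of 147 to 148 against 157 to 176. Microglia, endothelial and choroid plexus sums did not overlap between T30 and ZT6. The choroid plexus call rests on Enpp2 alone, and Ttr, another of its markers, had log2 levels as low as 0.415. In the 3 ZT3 controls the choroid plexus sums were 164, 187 and 378, so 1 animal stood apart. Across control times Ttr had a fitted range of 3.25 with its highest level at ZT3. The T27 comparison and the time-of-day test both use these ZT3 animals. Of 7 inhibitory neuron markers 2 rose at T30, of 7 excitatory neuron markers 1 rose and of 4 precursor markers 1 rose, and none of the astrocyte or blood markers was called. These counts stand against 31.6% of all genes called at T30. No marker of the oligodendrocyte, microglia, endothelial and choroid plexus lists was at zero. The 5 immediate early genes, which mark neuronal activity, all rose at T30 with a median of 1.97. The part of these changes in the members' values was not tested.

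Accessibility at the members' starts was read from the ATAC-seq peaks. RefSeq on GRCm38.p6 matched 86 of 86 members, 3 of them under another symbol, and gave a promoter window for 72. Members with none in the table used include Atp5a1, Cox4i1, Cox6a2, Cox6c, Ndufa2, Ndufa4l2, Ndufaf6, Ndufb9, Ndufs1, Sdhc, Uqcrb, Uqcrc2 and Uqcrq. All 72 starts had a peak within 500 bp, 73 peaks in all, with none shared between members. Those peaks were strong and wide: their mean control signal had a median of 22.2 against 4.602 for all 130727 peaks, and their median width was 1167 bp against 546 bp.

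No peak at a member's start was called with deprivation or time of day. The limma test called 0 of 73 at T27, T30, T36 and T48 and for time of day, against 0.689%, 2.6%, 0.618%, 0.00153% and 1.39% of all peaks. Of 10498 peaks at the starts of all genes of the RNA table with a window, only 0.0381%, 0.419% and 0.0476% were called at T27, T30 and T36, so 0 of 73 is near that background. Leaving out 1 animal at a time gave 0 to 1 of the 73 for time of day. At an unadjusted p under 0.05 there were 8, 6, 5, 3 and 9 of the 73. On the recovered whole reads, the edgeR quasi-likelihood test called 1446, 2610 and 359 of all peaks at T27, T30 and T36 and none of the 73. The median log2 change at members' starts was -0.15 at T27 and -0.13 at T30, and over the 10498 peaks it was -0.15 and -0.11. Over all peaks the medians were -0.01 and -0.02.

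Peaks at the starts of the members with a stable RNA call gave no call either. At T30 the peak of Atp5d had a change of -0.06 ± 0.18 (SE), that of Ndufaf1 -0.21 ± 0.22 (SE) and that of Ndufa8 0.18 ± 0.14 (SE), with adjusted p of 0.927, 0.703 and 0.554 from limma. The Atp5d peak had a signal of 18.5 ± 2.25 (SD, n = 3) at T30 and 19.3 ± 1.55 (SD, n = 5) at ZT6. The standard errors leave changes of about the size of the RNA change undetectable. The lowest adjusted p for time of day was 0.0677, for Ndufa4, whose peak had a fitted range of 0.44 with its peak value at ZT12.

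**Figure D5:**
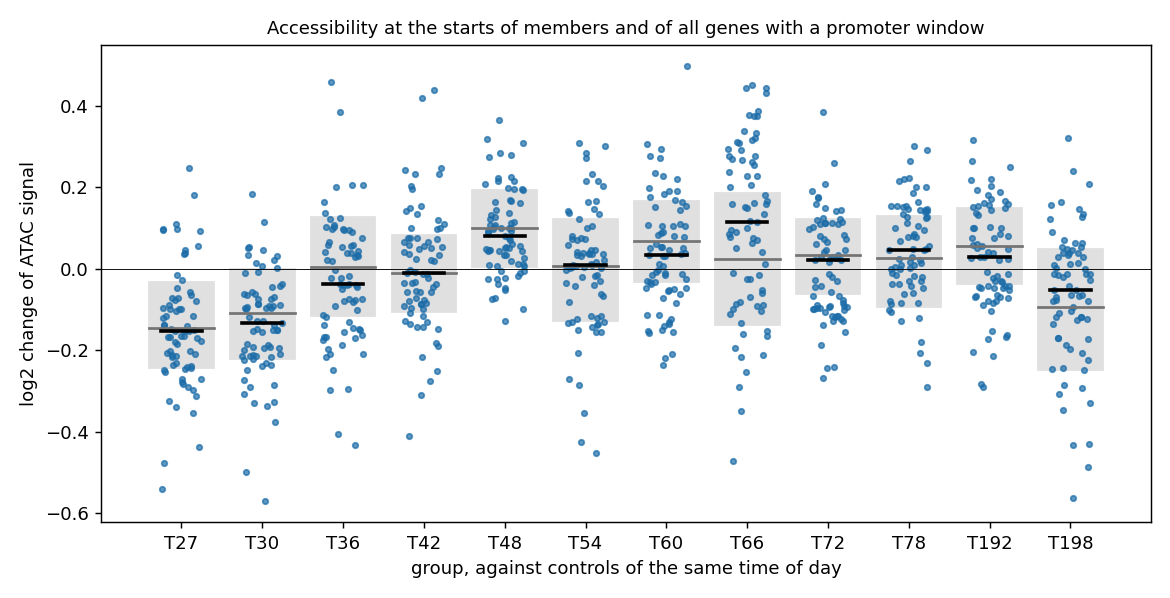
Log2 change of ATAC signal (y axis) at 73 peaks at members' starts (blue points, medians in black) for each deprived group against controls of the same time of day (x axis). Grey boxes span the middle 50% of 10498 peaks at the starts of all genes with a window, with grey lines for their medians, and T66 rests on 1 library. Members' medians of -0.15 at T27 and -0.13 at T30 lie close to those of all starts, -0.15 and -0.11.

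The promoter windows were searched on both strands for the NRF1 core GCGCANGC, the ETS core CCGGAAGT and the YY1 core AAGATGGC. Of 60 matches in member windows, no 2 of different motifs shared bases, while 9 pairs of matches to 1 motif did. The NRF1 core was in 25 of 72 member windows (34.7%), against 20% of 10672 windows of genes in the RNA table. The ETS core was in 6.94% against 7.85%, the YY1 core in 13.9% against 4.5%, and at least 1 of the 3 in 50% against 29.3%. By complex, the NRF1 core was in 3 of 3 windows of complex II, 2 of 5 of complex III, 1 of 9 of complex IV, 7 of 14 of complex V and 9 of 32 of complex I. The YY1 core was in 7 of 32 windows of complex I and 2 of 14 of complex V. A match is a run of letters, not a measured site of binding.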

How the data were processed

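RNA-seq and ATAC-seq were made from the same cortices, per the labels' protocols. RNA values were deposited by the authors on a log2 scale. An offset of 0.5 was read from batch 1, where 30 values lay at exactly -1, the log2 of that offset. In batch 2 none lay at exactly -1 and 23 lay below it, which this offset alone does not give. Whether batch 2 values were shifted before deposit was not tested. The linear sums used this offset for both batches, and T60, T66, T192 and T198 hold batch 2 animals alone. ATAC values were deposited as normalised signal in 130727 peaks. Per the submitters' processing notes the tools included kallisto 0.43.0 with sleuth 0.29.0, HTSeq 0.6.1, MACS2 2.1.1, Bowtie2 and bedtools 2.26.0, besides SAMtools and FastQC, and the builds GRCm38 and mm10. Depth of RNA libraries is stated in the labels' protocols as over 36 M mappable reads (median 55 M). Signal values were whole multiples of 1 read (100% within a tolerance of 0.02), giving 2.21 to 11.9 M reads in peaks per library.

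Each test was 1 fit with limma 3.58.1 in R 4.3.3 (intensity trend, group and batch) over all animals, on the deposited log2 values or on log2(signal + 0.5), two-sided, with Benjamini-Hochberg adjustment over all genes or peaks and a threshold of 0.05. Whole ATAC reads were tested with edgeR 4.0.16. For 1 animal with RNA from both batches the batch of the first library was used, and 1 repeat ATAC library was left out. T66 ATAC holds 1 library, assumed to vary like the others. Each animal was 1 replicate. Counts of members or of their peaks at an unadjusted p under 0.05 stand without the share of all genes or peaks. None of them is read as a result about the members.

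Members and lists were chosen with earlier results of these data known. One member enters the counts and medians but is not reported here by name. Named with values were the extremes of each complex, every member called after deprivation, the 12 smallest p for time of day, isoform groups and complex II. Members named in other comparisons, and genes of other lists, were named because they passed the test or as markers. Alternatives covered threshold, filter, trend, batch, scaling, block, peak window, test and single animals.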

Additional observations from a re-analysis of the deposited data

Results flagged for a closer look

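In groups of 4 to 10 animals, a library was set apart where its gap to the nearest animal was large against the range of its group (Dixon's test), which chance gives in about 1 of 20 groups. Over 35 named members, the complex means and the control groups, 6 libraries stood apart in 172 groups tested (3.49%). Atp5g3, an isoform of the c subunit of complex V, was low in ZT0 control replicate 1 at 8.45, where the group median was 8.58. Cox7a2, of complex IV, was high in ZT0 control replicate 3 at 7.84 (group median 7.67). In ZT12 control replicate 4, Cox6b1 of complex IV was high at 8.89 (group median 8.75) and Uqcrh of complex III at 8.66 (group median 8.50). The mean deviation of complex III from the 26 controls was 0.0514 in that same animal against a group median of -0.03. It was -0.0795 in ZT6 control replicate 2.

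The effect of deprivation on mt-Nd1, mt-Nd5 and mt-Nd6, alone among the 13 mtDNA-encoded transcripts, differed between T30 and T36 by a direct test in limma. Over all genes 11.4% passed this test. The transcripts were named after their values were seen, and mt-Nd6 carries the limit on strand given above. The T36 effect was higher than the T30 effect by 0.31 for mt-Nd1, by 0.30 for mt-Nd5 and by 0.33 for mt-Nd6, with adjusted p of 0.0259, 0.0372 and 0.0329.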

How the results depend on the processing

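Of the changes called at T30 and T36, none reversed under the alternatives tried, 24 of 112 values lost the call under settings other than leaving out 1 animal, and 37 of 112 on leaving one out. Those of Atp5d, Ndufa8 and Ndufaf1 at T30 lost it under none of 16. With the threshold at an adjusted p of 0.1, counts of members were 3 at T27, 9 at T36, 1 at T66 and 14 for ZT18 against ZT6, and of mtDNA-encoded transcripts 4 at T27 and 3 at T42. Without a batch term 1 member was called at T66. With animals of one batch only, 6 members were called at T30, 2 at T36, 2 for time of day and 3 for ZT18 against ZT6, with 4 mtDNA-encoded transcripts for the last. With only the groups compared in the fit, which leaves fewer samples, 6 members were called at T30 and 2 at T36, and 0, 3 and 4 mtDNA-encoded transcripts at T27, at T30 and for ZT18 against ZT6. Centring each library on its median left 5 mtDNA-encoded transcripts for ZT18 against ZT6. Scaling to the nuclear total gave 1 member at T66, 14 for ZT18 against ZT6 and 4 mtDNA-encoded transcripts at T27. That scaling, and every count of mtDNA-encoded transcripts, was added after seeing the data. The share of all genes called depends on the setting too. For RNA it is given above only for batch 1 at T30 and for time of day, and for T54 without replicate 4. A change of count between settings in this section is therefore not read as particular to the members or the mtDNA-encoded transcripts. Where no construction is named, the cause was not tested.

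Animals with the same number did not deviate together: the median correlation over 235 same-number pairs was -0.001 for RNA and over 222 pairs -0.003 for ATAC, so the numbers do not pair the animals. With the number as a replicate block, 1 member was called at T27, 7 at T30, 4 at T36, 7 for time of day and 6 for ZT18 against ZT6.

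Leaving out 1 animal at a time gave 0 to 1 members at T27, 5 to 12 at T30, 0 to 5 at T36, 0 to 17 at T54, 6 to 11 for ZT18 against ZT6 and 8 to 13 for time of day. It gave 0 to 2 mtDNA-encoded transcripts at T27, 3 to 7 at T30, 0 to 3 at T42, 2 to 9 for ZT18 against ZT6 and 1 to 4 for time of day, and 0 to 1 promoter peaks for time of day. With 3 animals in a deprived group, the typical standard error of 0.05 sets the size of change that could be seen.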
